A study of Mus musculus with 2 samples.

Results

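The genes described here encode the enzymes, transporters and regulators of glycolysis (20 genes), of pyruvate entry into mitochondria (9 genes) and of the tricarboxylic acid (TCA) cycle (15 genes). They were chosen by name and pathway, with earlier results of these data known. Of the 44 symbols, 43 had an entry of their own among 24319 named genes. Eno1 was listed only in a joint entry with its near-identical copy Eno1b and is described apart from the counts.

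RNA was measured in nuclei of adult mouse dentate gyrus, the hippocampal region in which granule neurons go on being born. A wild-type group was compared with mice carrying 1 mutant Kmt2d allele (labelled Kmt2d +/mut, given as Kmt2d+/Bgeo in the series design, and called the mutant from here on). KMT2D methylates lysine 4 of histone H3, and loss of a copy causes Kabuki syndrome type 1 in people. All mice were 8 weeks old, received EdU at 150 mg/kg into the peritoneum and were sampled 16 h later, so that labelled nuclei came from cells that had copied DNA in that time or from their daughters. Each genotype was 1 library made from 500 sorted EdU-labelled nuclei of 3 pooled mice, so no value has a replicate error and no test between genotypes was possible. The mutant allele was not restricted to a cell type by any label, and the pooled mice cannot be told apart.

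Glycolysis splits glucose into pyruvate in the cytosol and yields ATP without oxygen. Pyruvate then becomes lactate through lactate dehydrogenase, or enters mitochondria through a carrier and is turned into acetyl-CoA by the pyruvate dehydrogenase complex, which kinases switch off. The TCA cycle oxidises acetyl-CoA and hands electrons to the respiratory chain. Neural stem cells and progenitors are known to lean on glycolysis, and their neuronal progeny on mitochondrial respiration.

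The values are FPKM, which count fragments per unit of transcript length and of library depth, as the authors deposited them. Above 0 FPKM were 5787 genes in wild-type and 5443 in the mutant, and depth, as the spacing of low values gives it, was near 220000 and 216000 fragments. Kmt2d itself was at 34.7 FPKM in wild-type and 23.5 in the mutant. Markers of other cells were read as well: the summed level of 9 oligodendrocyte lineage markers was 1115 FPKM in wild-type (7 above 0) and 1638 in the mutant (8 above 0), and that of 8 granule neuron markers was 1485 and 1107, with 6 above 0 in each and the defining marker Prox1 at 0 in both. Progenitor markers summed to 259 FPKM with 4 of 7 above 0 in wild-type and to 501 with 7 of 7 in the mutant, and stem cell and astrocyte markers to 726 and 972 with 5 of 9 in each. Some members went against these sums. Gfap and Glul were at 54.6 and 133 FPKM in wild-type and 0 in the mutant, and Elavl2 at 138 and 51.1. Sox2 and Sox9 were at 46.7 and 2.32 FPKM in the mutant and 0 in wild-type, so the 5 genes were not the same. Microglial markers summed to 62.5 and 281 FPKM, with 3 of 7 above 0 in each and Cx3cr1 at 0 in both, and all 7 endothelial markers were at 0 in both. Of the defining markers, Olig2, Dcx and C1qa were also at 0 in wild-type, and Calb1 and P2ry12 at 0 in the mutant. The part of these cell types in the values below was not tested, and fewer cells of a type cannot be told apart from less RNA per cell.

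Glycolysis had more members higher than lower in the mutant, and the TCA cycle more members lower than higher. Of 19 glycolysis entries, 16 reached 1 FPKM in either library, the minimum for all counts. The mutant value was higher by 2-fold or more for 10 of these, lower by that much for 4 and within 2-fold for 2. Among all 7903 genes over that minimum, 40.9% passed 2-fold upward and 44.5% downward, so differences of this size were common in this pair. Pyruvate entry had 4 of 7 genes over the minimum higher and 1 lower. The TCA cycle had 3 of 11 higher and 7 lower.

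Much of this split came from genes with a reading in a single library. Of the 16 glycolysis genes, 7 had no reading in wild-type and 2 none in the mutant, where the table lists 0. For pyruvate entry these counts were 3 and 1 of 7, and for the TCA cycle 2 and 4 of 11. Over all genes, 27.8% had no wild-type reading and 31.9% no mutant reading. An exact 0 in such a table can be a failed estimate, which was not tested, so these are given as listed at 0 with no fold. Gapdh was among the genes at 0 in wild-type, with an estimated 9.1 fragments in the mutant. The remaining 9 members had no reading on either side, namely 3 of glycolysis, 2 of pyruvate entry and 4 of the TCA cycle.

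**Figure D1:**
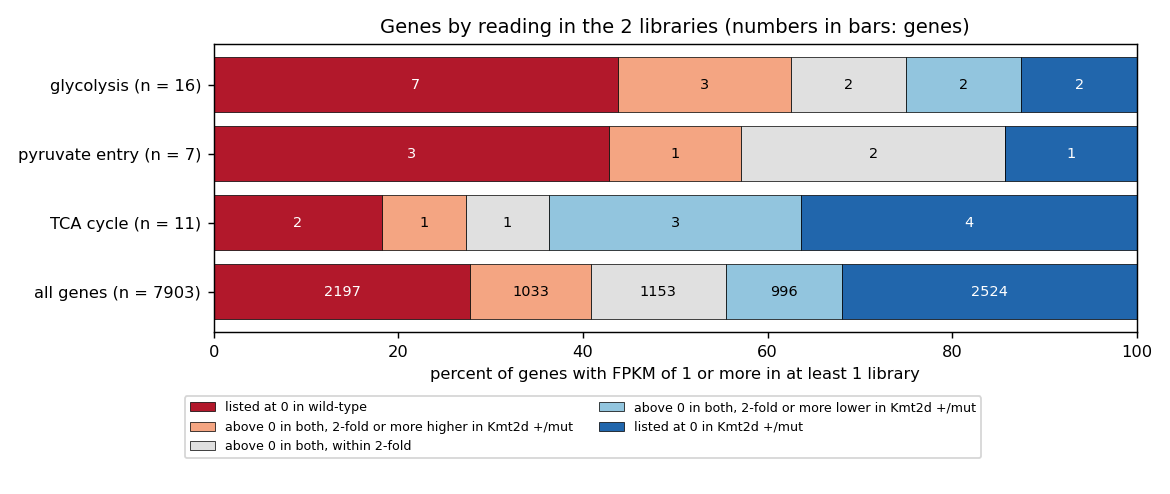
Share of genes that reached 1 FPKM in either library (horizontal axis, percent) by their reading in the 2 libraries, for the 3 pathway groups and for all 7903 genes; numbers in the bars count genes. The wild-type library lists 0 for 7 of 16 glycolysis genes, and the mutant library for 4 of 11 TCA cycle genes.

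The median of log2((Kmt2d +/mut FPKM + 1)/(wild-type FPKM + 1)) was 1.31 over the 16 glycolysis genes, 1.91 over the 7 genes of pyruvate entry and -2.50 over the 11 TCA cycle genes, against -0.23 over all 7903 genes. Restricted to members above 0 in both libraries, the medians were 0.08 over 7 glycolysis genes, 0.91 over 3 pyruvate entry genes and -2.19 over 5 TCA cycle genes, against 0.02 over 3182 genes. The glycolysis value therefore rested on the genes at 0 in wild-type. The pyruvate entry value of 1.91 is that of Pdk1, at 2.75 FPKM in the mutant, an estimated 3.0 fragments, and 0 in wild-type. The TCA cycle value of -2.19 is that of cytosolic Mdh1, and for mitochondrial TCA cycle genes alone the median was -2.90 over 10 genes and -1.16 over the 4 above 0 in both. Summed over its members, the glycolysis group held 0.302% of all FPKM in wild-type and 0.556% in the mutant. The TCA cycle group held 0.298% and 0.294%, so its sum did not follow its median.

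**Figure D2:**
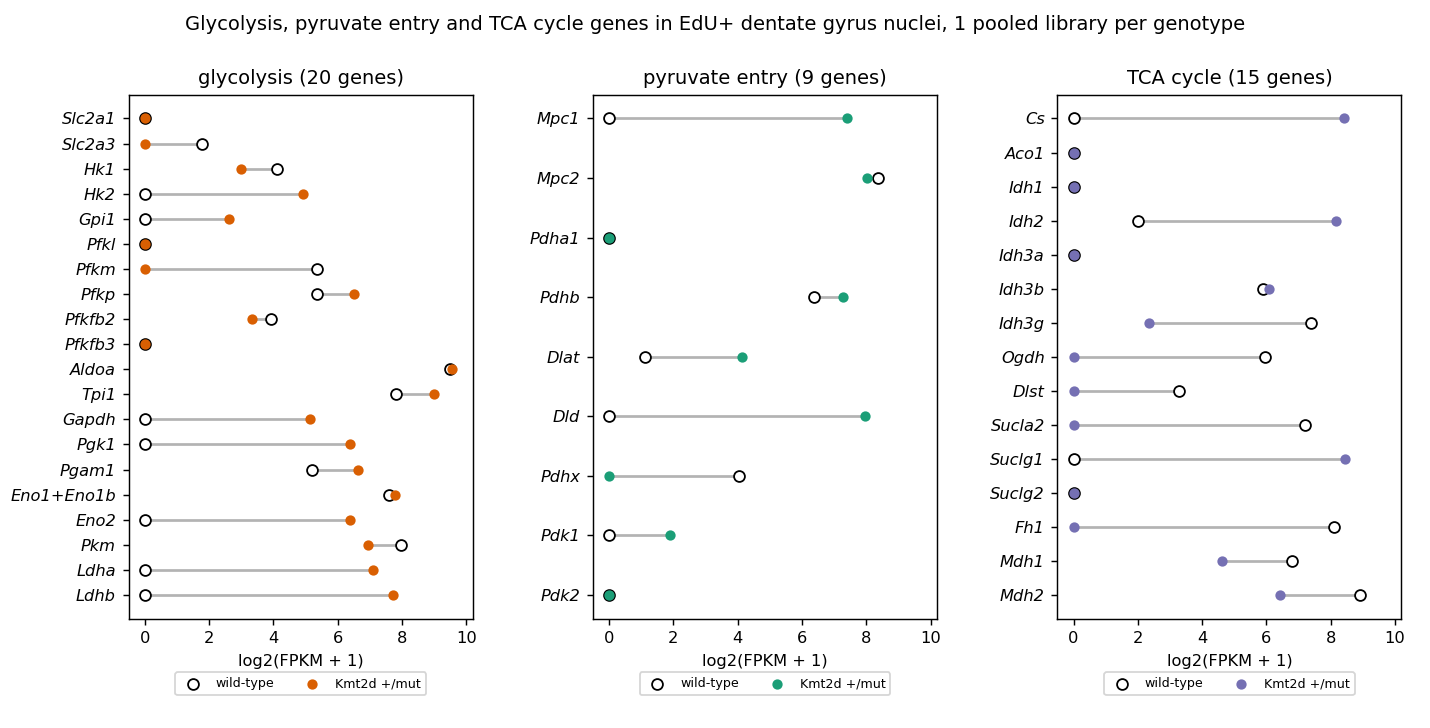
Level of each gene as log2(FPKM + 1) (horizontal axis) in the wild-type library (open circles) and the mutant library (filled circles), by pathway group and in pathway order; lines join the values of a gene. Aldoa was highest in both libraries at 714 and 757 FPKM, and several genes had a circle at 0 in 1 library.

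The authors' deposited table carries their own call for each gene. Of 3249 named genes they tested, 12.8% were called higher and 14.3% lower in the mutant. Of the members they tested 9 of glycolysis, 4 of pyruvate entry and 10 of the TCA cycle. In the authors' deposited table, 3 glycolysis genes (Eno2, Ldha and Ldhb), 1 gene of pyruvate entry (Dld) and 2 TCA cycle genes (Cs and Suclg1) were called higher, and 3 TCA cycle genes (Ogdh, Sucla2 and Fh1) were called lower. Each of these 9 genes was listed at 0 in the library where it was lower. Among tested genes listed at 0 in a library 61.7% were called, and among tested genes above 0 in both 0% were called, so a call in this table marks a gene with no reading on the other side.

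Glucose enters brain cells through facilitative carriers. Slc2a1, the carrier of brain endothelium and glia, was at 0 in both libraries. Slc2a3, the main neuronal carrier, was at 2.40 FPKM in wild-type and 0 in the mutant, which on its transcript length is an estimated 2.0 fragments. Neither carrier gave enough fragments to compare the genotypes. All 7 endothelial markers were also at 0.

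Hexokinases trap glucose as glucose 6-phosphate. The wild-type library read Hk1, the common brain form, at 16.2 FPKM and Hk2, an inducible form, at 0. In the mutant library Hk1 was at 7.04 and Hk2 at 29.3 FPKM, so Hk1 was read in both libraries and Hk2 in the mutant library alone. For Hk1 the ratio of the mutant to wild-type had an exact binomial 95% interval of 0.147 to 1.33 on 13.1 and 5.6 estimated fragments, which holds 1. These intervals are for counting error only and do not cover the difference between mice. As PCR copies are not separate molecules, the intervals are too narrow even for counting error. Gpi1, which converts glucose 6-phosphate to fructose 6-phosphate, was at 5.11 FPKM in the mutant, an estimated 3.0 fragments, and at 0 in wild-type.

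Phosphofructokinase commits sugar to glycolysis and exists as 3 isoforms. Pfkp, the platelet form that is also found in brain, was at 40.03 FPKM in wild-type and 89.5 in the mutant, a ratio of 2.24 with an interval of 1.48 to 3.44. Pfkm, the muscle form, was at 39.7 FPKM in wild-type and 0 in the mutant, and the liver form Pfkl was at 0 in both. In wild-type Pfkm and Pfkp thus had nearly equal levels per length, and in the mutant Pfkp alone was read. The summed level of the isoforms was 79.7 FPKM in wild-type and 89.5 in the mutant. Pfkm shares exon sequence with Senp1 on the other strand and Pfkp with Pitrm1, and the labels describe no strand marking, so their reads cannot be fully told from those genes.

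Pfkm lies on chromosome 15 (98092589 to 98132451 in GENCODE, mm10), and Kmt2d on the same chromosome at 98831669 to 98871204. The gap between them is 699 kb, so the mutant allele and Pfkm lie close together. It was the only member on that chromosome, and whether the region around the mutant allele differs between the genotypes was not tested.

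Fructose 2,6-bisphosphate activates phosphofructokinase and is made and removed by the PFKFB enzymes. Pfkfb2 was at 14.2 FPKM in wild-type and 9.0 in the mutant, with a ratio interval of 0.225 to 1.63. Pfkfb3, the form with the strongest kinase activity, was at 0 in both libraries. No difference in this regulatory step was detectable at this depth.

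Aldoa and Tpi1 encode aldolase A and triosephosphate isomerase, which give the pair of triose phosphates. Aldoa was the most abundant member, at 714 FPKM in wild-type and 757 in the mutant, above 99.2% and 99.5% of the genes with a reading. Its ratio was 1.06 with an interval of 0.871 to 1.29. Tpi1 was at 223 FPKM in wild-type and 511 in the mutant, a ratio of 2.29 with an interval of 1.71 to 3.07. On the authors' deposited table neither was called, with q-values of 0.97 for Aldoa and 0.641 for Tpi1. Several glycolysis genes, Aldoa and Gapdh among them, have retrocopies in the genome, so part of their reads can be uncertain. Exons of Aldoa, Tpi1 and Pfkfb2 also overlap those of Fam57b, Spsb2 and Yod1 on the other strand, as do those of Idh3b and Nop56 and of Pdha1 and Map3k15 further on.

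The payoff phase recovers ATP. Gapdh, the enzyme that reduces NAD+, was at 34.2 FPKM in the mutant, an estimated 9.1 fragments, and at 0 in wild-type. Pgk1, which makes the first ATP of the pathway, was at 81.8 FPKM in the mutant and 0 in wild-type, and was not called in the authors' deposited table (q-value 0.108). Pgam1, a phosphoglycerate mutase, was at 36.02 FPKM in wild-type and 98.3 in the mutant, a ratio of 2.73 with an interval of 1.37 to 5.5. All 3 genes had the higher value in the mutant. Pgam2, a mutase outside the listed members, was at 45.6 FPKM in the mutant and 0 in wild-type, and the authors did not test it. In the mutant, Gapdh lay far below Aldoa in level per length. Exons of Gapdh overlap those of Iffo1 on the other strand.

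Enolase makes phosphoenolpyruvate. The joint entry of Eno1, the common form, and Eno1b was at 194 FPKM in wild-type and 219 in the mutant, a ratio of 1.13 with an interval of 0.818 to 1.54. Eno2, the neuron-enriched form, was at 81.8 FPKM in the mutant and 0 in wild-type, with a call of higher in the authors' deposited table (q-value 0.029). The forms thus differed in pattern, with the common form nearly level between the libraries. Pkm, pyruvate kinase, was the only payoff gene with the higher value in wild-type, at 249 FPKM against 123, a ratio of 0.494 with an interval of 0.359 to 0.682. The gene-level value does not separate the splice forms PKM1 and PKM2.

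Lactate dehydrogenase interconverts pyruvate and lactate as a tetramer of A and B subunits. Ldha, whose subunit favours lactate formation, was at 135 FPKM in the mutant and 0 in wild-type. Ldhb, whose subunit favours the way back to pyruvate, was at 208 FPKM in the mutant and 0 in wild-type. These rest on 46.3 and 50.4 estimated fragments, and both have a call of higher in the authors' deposited table, each at a q-value of 0.029. No lactate dehydrogenase reading was thus obtained in the wild-type library, from genes on chromosome 7 (Ldha, 46845804 to 46855627) and chromosome 6 (Ldhb, 142490249 to 142507957, mm10). Of the 9 genes called in the authors' deposited table, the promoters of the 6 whose window holds no annotated exon are shown, because Ldha is a textbook target of the oxygen-regulated factor HIF-1, whose core letters ACGTG or GCGTG are in capitals here and below, also as CACGT and CACGC where they read on the other strand. Each window is the 250 bases before the RefSeq start (GRCm38.p6) nearest the locus in the table, for Ldha on the plus strand (chr7:46845554-46845803) and for Ldhb on the minus strand (chr6:142507958-142508207).
Ldha: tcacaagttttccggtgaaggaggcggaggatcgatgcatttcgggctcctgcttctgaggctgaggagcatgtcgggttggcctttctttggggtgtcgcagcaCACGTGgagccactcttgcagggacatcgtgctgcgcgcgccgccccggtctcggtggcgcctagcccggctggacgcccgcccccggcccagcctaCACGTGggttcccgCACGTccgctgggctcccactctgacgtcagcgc
Ldhb: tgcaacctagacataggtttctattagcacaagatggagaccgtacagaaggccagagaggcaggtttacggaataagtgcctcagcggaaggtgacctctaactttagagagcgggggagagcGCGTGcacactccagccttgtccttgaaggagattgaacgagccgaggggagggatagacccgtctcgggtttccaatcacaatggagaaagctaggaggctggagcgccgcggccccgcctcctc
The Ldha window held ACGTG at 5 positions counted over both strands, of which 4 were the overlapping pairs of 2 palindromes, and Ldhb held GCGTG once. A match is a description of letters and does not show binding.

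**Figure D3:**
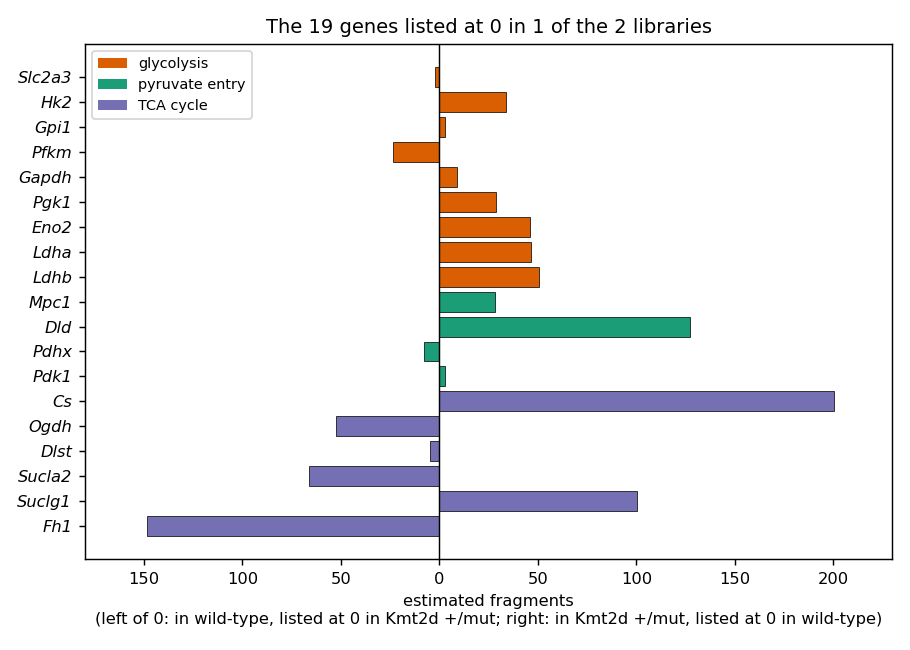
Estimated fragments (horizontal axis) of the 19 genes listed at 0 in 1 library; bars to the right are readings in the mutant of genes at 0 in wild-type, and bars to the left the reverse, coloured by pathway group. Cs had the most with 200.2 fragments in the mutant and Fh1 148 in wild-type, while Slc2a3, Gpi1 and Pdk1 had 2.0 to 3.0.

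Pyruvate crosses the inner mitochondrial membrane through a carrier made of MPC1 and MPC2, which work only as a pair. Mpc2 was at 327 FPKM in wild-type and 261 in the mutant, a ratio interval of 0.537 to 1.19. Mpc1 was at 169 FPKM in the mutant, an estimated 28.4 fragments, and 0 in wild-type. It was not called in the authors' deposited table (q-value 0.197). Both partners of the carrier were read in the mutant, and 1 of 2 in wild-type.

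The pyruvate dehydrogenase complex has E1, E2 and E3 enzymes and an E3-binding protein. Pdha1, the E1 alpha subunit, was at 0 in both libraries, and Pdhb, the E1 beta subunit, at 81.0 FPKM in wild-type and 153 in the mutant, a ratio of 1.89 with an interval of 1.11 to 3.21. Dlat, the E2 enzyme, was at 1.18 FPKM in wild-type and 16.7 in the mutant, which are an estimated 1.0 and 13.9 fragments and give a ratio of 14.2 with an interval of 2.17 to 603. Pdhx, the E3-binding protein, went the other way, at 15.5 FPKM in wild-type and 0 in the mutant on 7.9 estimated fragments. Of 5 subunits, 3 were read in each library and 2 in both, so neither library read every subunit of the complex.

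Dld, the E3 enzyme, regenerates the lipoamide of this complex and of the 2-oxoglutarate dehydrogenase complex of the TCA cycle. It was at 249 FPKM in the mutant, an estimated 127 fragments, and at 0 in wild-type, with a call of higher in the authors' deposited table (q-value 0.0293). Its locus is on chromosome 12 (31331562 to 31351471, mm10, minus strand), and the window before its start (chr12:31351472-31351721, minus strand) held neither core.
Dld: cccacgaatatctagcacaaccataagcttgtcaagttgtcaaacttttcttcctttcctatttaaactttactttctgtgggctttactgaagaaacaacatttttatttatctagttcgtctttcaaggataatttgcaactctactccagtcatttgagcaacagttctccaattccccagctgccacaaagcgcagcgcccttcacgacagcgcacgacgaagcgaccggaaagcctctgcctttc
Absence of the letters from this window says nothing about HIF-1 at other sites.

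PDH kinases phosphorylate and switch off the complex. Pdk1, a form known to be induced by low oxygen, was at 2.75 FPKM in the mutant, an estimated 3.0 fragments, and 0 in wild-type. Pdk2 was at 0 in both libraries. Pdk1 and Pdk2 were thus read too thinly to set beside the complex they control. Of the kinases outside the listed members, Pdk4 was at 33.8 FPKM in the mutant and 0 in wild-type. Pdk3 was at 0 in both, and the authors tested neither.

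The TCA cycle opens with citrate synthase. Cs was at 338 FPKM in the mutant, an estimated 200.2 fragments, and at 0 in wild-type, with a call of higher in the authors' deposited table at a q-value of 0.00308. That is the smallest q-value among the members. Aco1, a cytosolic aconitase that also acts as an iron sensor, was at 0 in both libraries.

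Isocitrate dehydrogenases make 2-oxoglutarate, the co-substrate of many histone and DNA demethylases. Of the NADP-linked forms, the cytosolic Idh1 was at 0 in both libraries, and the mitochondrial Idh2 at 3.01 FPKM in wild-type and 284 in the mutant. The wild-type value is an estimated 1.0 fragment against 95.8, a ratio of 94.2 with an interval of 17.1 to 3902, and the authors' deposited table does not call it (q-value 0.574). The NAD-linked enzyme of the cycle is built from IDH3A, IDH3B and IDH3G. Idh3a, the catalytic subunit, was at 0 in both. Idh3b was nearly level at 58.3 FPKM in wild-type and 66.0 in the mutant, with an interval of 0.569 to 2.27. Idh3g was at 168 FPKM in wild-type and 4.06 in the mutant, an estimated 42.5 and 1.0 fragments. Its ratio of 0.0241 has an interval of 0.000586 to 0.139, in the opposite direction to Idh2. The summed level of the NAD-linked subunits was 226 FPKM in wild-type and 70.1 in the mutant, and that of the NADP-linked forms 3.01 and 284.

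The 2-oxoglutarate dehydrogenase complex makes succinyl-CoA. Ogdh, its E1 enzyme, was at 60.5 FPKM in wild-type and 0 in the mutant, with a call of lower in the authors' deposited table (q-value 0.029). Dlst, the E2 enzyme, was at 8.80 FPKM in wild-type, an estimated 5.0 fragments, and 0 in the mutant. With Dld at 0 in wild-type, 2 of 3 subunits were read in wild-type, 1 of 3 in the mutant and 0 in both.

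Succinyl-CoA ligase pairs an alpha subunit with either an ADP-forming or a GDP-forming beta subunit. Suclg1, the alpha subunit, was at 346 FPKM in the mutant and 0 in wild-type, on 100.1 estimated fragments. Sucla2, the ADP-forming beta subunit, was at 147 FPKM in wild-type and 0 in the mutant, on 66.1 estimated fragments. Suclg2, the GDP-forming beta subunit, was at 0 in both. The authors' deposited table calls Suclg1 higher and Sucla2 lower, each with a q-value of 0.029, so that subunits which function only together had opposite calls and neither library read a whole enzyme.

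Fumarase and malate dehydrogenase close the cycle. Fh1 was at 275 FPKM in wild-type, an estimated 148 fragments, and 0 in the mutant, with a call of lower in the authors' deposited table (q-value 0.0303). Mdh2, the mitochondrial malate dehydrogenase, was at 486 FPKM in wild-type and 84.8 in the mutant, a ratio of 0.175 with an interval of 0.106 to 0.269. Mdh1, the cytosolic form of the malate-aspartate shuttle, was at 111 FPKM in wild-type and 23.5 in the mutant, a ratio of 0.212 with an interval of 0.0976 to 0.435. All 3 genes were lower in the mutant, and the authors' deposited table calls neither Mdh2 (q-value 0.61) nor Mdh1 (q-value 0.612). Mdh1 overlaps exons of Wdpcp on the other strand.

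The windows before Cs (chr10:128337477-128337726, plus strand), Ogdh (chr11:6291347-6291596, plus strand) and Fh1 (chr1:175625636-175625885, minus strand) are shown as TCA cycle genes that the authors' deposited table calls in opposite directions. Their loci (mm10) are chromosome 10, 128337832 to 128362479, for Cs, chromosome 11, 6291597 to 6359094, for Ogdh, and chromosome 1, 175601378 to 175625635, for Fh1.
Cs: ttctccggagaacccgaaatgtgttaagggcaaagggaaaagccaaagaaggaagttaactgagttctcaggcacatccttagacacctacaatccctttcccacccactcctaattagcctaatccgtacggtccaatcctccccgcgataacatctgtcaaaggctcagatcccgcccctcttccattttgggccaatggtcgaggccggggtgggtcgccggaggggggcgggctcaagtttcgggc
Ogdh: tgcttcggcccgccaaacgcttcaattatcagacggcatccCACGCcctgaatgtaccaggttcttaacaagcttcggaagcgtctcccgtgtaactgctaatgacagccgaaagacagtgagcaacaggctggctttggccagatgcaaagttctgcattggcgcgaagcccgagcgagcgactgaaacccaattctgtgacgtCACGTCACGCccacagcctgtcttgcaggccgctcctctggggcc
Fh1: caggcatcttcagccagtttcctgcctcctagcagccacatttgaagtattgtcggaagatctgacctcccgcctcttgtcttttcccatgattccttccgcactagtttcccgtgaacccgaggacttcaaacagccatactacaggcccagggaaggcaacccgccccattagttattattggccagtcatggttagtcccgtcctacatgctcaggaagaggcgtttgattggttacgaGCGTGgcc
Ogdh held ACGTG once and GCGTG at 2 positions, Fh1 held GCGTG once, and Cs held neither. Windows with a core thus occurred both before genes called higher in the authors' deposited table (Ldha and Ldhb) and before genes called lower (Ogdh and Fh1). Of the called genes not shown, Suclg1 held GCGTG at 3 positions, and Eno2 and Sucla2 held neither core. Sequence was matched for 42 of the 44 genes. In their windows ACGTG was present in 7 of 19 of glycolysis (36.8%), 2 of 9 of pyruvate entry (22.2%) and 3 of 14 of the TCA cycle (21.4%), against 16.6% of 32851 windows of the same length. GCGTG was present in 8, 6 and 6 of these (42.1%, 66.7% and 42.9%), against 28.2%. Both cores hold the letters CG, of which the members' windows had a median of 16.5 and all windows 6, and the part of this base composition in the shares was not tested.

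**Figure D4:**
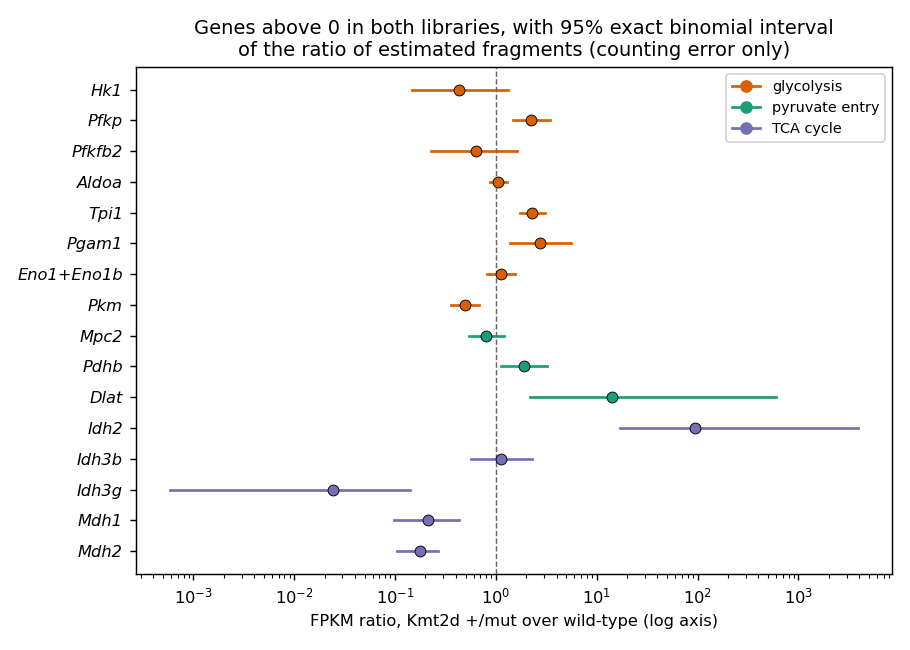
FPKM ratio of the mutant over wild-type (points, log axis) for genes above 0 in both libraries, with the 95% interval from an exact binomial on estimated fragments (lines, counting error only); the dashed line marks equal values. Intervals of Idh2, Dlat and Idh3g are wide because the lower library had an estimated 1.0 fragment, and those of Aldoa, Mpc2, Idh3b, Hk1, Pfkfb2 and the joint Eno1 entry cross the line.

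With a reading in both libraries were 15 members, of which 5 had a mutant value higher by 2-fold or more, 5 a value lower by that much and 5 lay within 2-fold. Among all 3182 genes above 0 in both, 63.8% lay 2-fold or more apart, so 10 of 15 is close to the background. In glycolysis the higher genes were Pfkp, Tpi1 and Pgam1 and the lower ones Hk1 and Pkm. In the TCA cycle Idh2 was higher and Idh3g, Mdh1 and Mdh2 were lower, and in pyruvate entry Dlat was higher.

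Chromosome 6 carried 8 of the 43 genes, among them Eno2 (124760053 to 124769673) and Tpi1 (124808661 to 124814296), which are close neighbours. The median transcript length was 1745 bp for the 15 members above 0 in both, 2636 bp for the 19 at 0 in 1 library and 3260 bp for the 9 at 0 in both. The part of length in these readings was not tested. In the library where they were read, the 19 genes at 0 in the other had a median of 33.7 estimated fragments, with a range of 2.0 to 200.2.

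**Figure D5:**
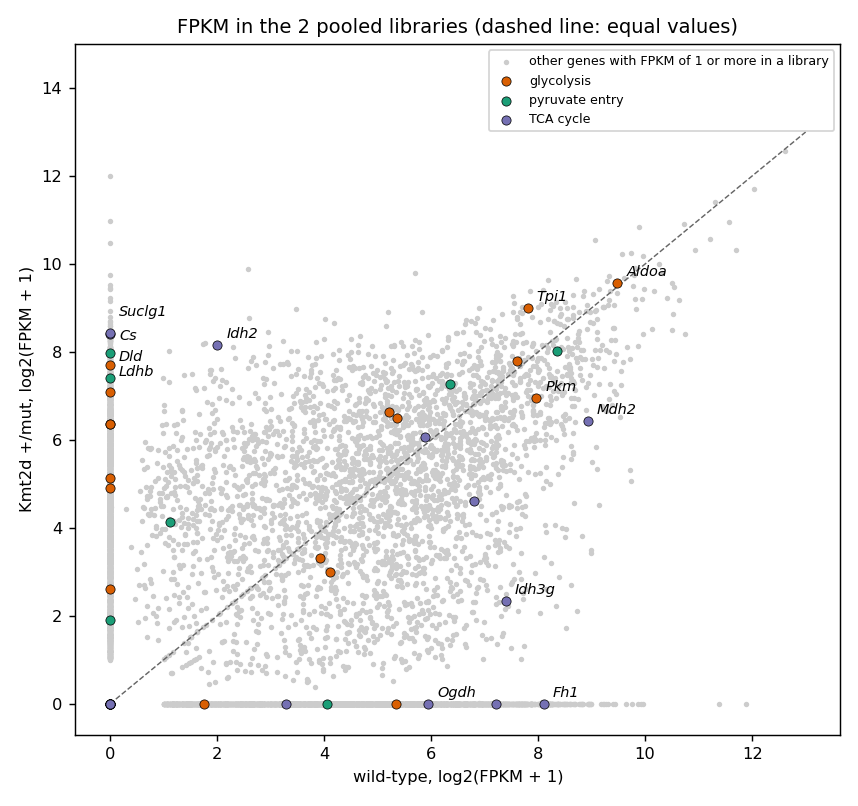
Level of every gene that reached 1 FPKM in either library, as log2(FPKM + 1) in wild-type (horizontal axis) and Kmt2d +/mut (vertical axis), with the pathway genes in colour, some of them named; points on an axis are genes listed at 0 in 1 library, pathway genes at 0 in both lie at the origin, and the dashed line marks equal values. The pathway genes lie across the same wide cloud as other genes, with Aldoa near the line at 714 and 757 FPKM.

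Of 51 other genes of these and adjoining pathways, 29 were over the minimum and 22 were at 0 in both libraries. Past 2-fold were 9 upward and 15 downward in the mutant, where all genes had 40.9% and 44.5%, and 5 lay within 2-fold. The median log2 ratio was -0.99, against -0.23 over all genes. Of the 29, 6 were at 0 in wild-type and 13 in the mutant. Over the 10 above 0 in both, 3 were higher, 2 lower and 5 within 2-fold, with a median of 0.12. In the pentose phosphate pathway, which branches from glycolysis and makes NADPH and ribose, Pgd was at 305 FPKM and Taldo1 at 252 in the mutant and both at 0 in wild-type, while Tkt was at 77.5 in wild-type and 0 in the mutant. The authors' deposited table calls Pgd and Taldo1 higher and Tkt lower, so enzymes of that branch also had opposite calls. Pdp1, the phosphatase that switches the pyruvate dehydrogenase complex on, was at 122 FPKM in the mutant and 0 in wild-type and is called higher in the authors' deposited table. Pck2, Got1 and Dhtkd1, which handle phosphoenolpyruvate, aspartate and 2-oxoadipate, were at 157, 127 and 96.1 FPKM in wild-type and 0 in the mutant, and the authors' deposited table calls them lower. Aldoc, the aldolase of astrocytes and neural stem cells, was at 210 FPKM in wild-type and 294 in the mutant. The 4 succinate dehydrogenase genes did not share a direction. Sdhd was at 142 FPKM in wild-type and 131 in the mutant, Sdhc at 27.8 and 136, Sdha at 90.01 and 44.7, and Sdhb at 0 in both. Acly, which returns citrate carbon to acetyl-CoA in the cytosol, was at 47.3 FPKM in wild-type and 194 in the mutant.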

How the data were processed

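The series holds 2 RNA-seq libraries, 1 per genotype, each from 500 sorted nuclei of 3 pooled mice, made by a modified Smart-seq2 protocol with 22 and 20 amplification cycles, per the labels' protocols. The submitters' processing notes name HISAT2, Cuffnorm, Cuffdiff and mm10; neither versions, annotation nor settings are stated there. The authors deposited FPKM values with a p-value, q-value and call per gene, all used as they stand. The pair of libraries was matched by name, and 4 other libraries in the table were not used. Of 24346 entries, 27 with a date for a name were left out.

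The ratio was log2((mutant FPKM + 1)/(wild-type FPKM + 1)) over genes that reached 1 FPKM in either library, which understates differences of low genes. Counts past 2-fold used the FPKM itself, and a gene listed at 0 in 1 library counted as past it. Fragments were estimated from steps between low FPKM values in genes with 1 transcript in GENCODE vM21 (same build) longer than 800 bp, after taking 180 bp off the length. With these, 74.4% of 90 low values in wild-type and 77.5% of 71 in the mutant (Kmt2d +/mut) lay within 0.1 of a whole fragment, and 1 fragment was worth 4.55 and 4.64 FPKM on 1 kb. Members were converted on the length of the APPRIS principal or else longest coding transcript, so an estimate can be off where another isoform was read, and the scaling assumes that each library's own total was used. The procedure was tested on simulated data. No read totals were used here. Neither molecular identifiers nor strand marking appear in the labels.

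By the naming rule every member is given. The members and lists were chosen with earlier results of these data known. Of 51 other pathway genes, those called and those of highest mean FPKM are named, and Sdha and Sdhb, picked with their values in view, complete their complex. Pdk3, Pdk4, Pgam2 and the markers Gfap, Glul, Sox2, Sox9 and Elavl2 were also picked with their values in view. A marker that the rule names is not reported here. Starts in the authors' loci were written 1-based. Python 3.11.15, scipy 1.17.1, pandas 2.3.3 and numpy 2.4.6 were used.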

Additional observations from a re-analysis of the deposited data

How the results depend on the processing

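With 1 library per genotype no replicate could be left out, and no value here has a replicate check. No paired analysis was possible because each genotype has 1 library. The medians kept their sign under every alternative run, and 59 of 75 alternative values stayed within 1.5-fold. Some of these 59 could not move, so the tally does not measure robustness. Counts past 2-fold do not use the pseudocount, and no member above 0 lay under the minimum of 1 FPKM. Rescaling to a median log2 ratio of 0 shifted values by only 0.019. Among members above 0 in both libraries, the glycolysis median moved from 1.31 to 0.0825 with 3 genes higher and 2 lower, the pyruvate entry median from 1.91 to 0.91 with 1 higher and 0 lower, and the TCA cycle had 1 higher and 3 lower. Among members the authors tested, 1 glycolysis gene was lower, and pyruvate entry had a median of 4.16 with 2 higher and 0 lower. The pyruvate entry median, over 7 genes, was 3.72 with a pseudocount of 0.1, 3.01 with each library's FPKM rescaled to the same sum, and 3.02 with 0 lower among members of 10 or more estimated fragments. These counts fall by construction where fewer genes enter, and a median over fewer genes is that of the genes left. The main pyruvate entry median is the ratio of Pdk1, at 2.75 FPKM in the mutant, an estimated 3.0 fragments, and 0 in wild-type. That ratio is set by the pseudocount and the scaling, which gives the shift on rescaling. With a pseudocount of 0.1 the median passes to Dlat. Rescaling to the same sum moves every log2 ratio of high genes by 0.18. The joint Eno1 entry, an alternative chosen after seeing the data, left the counts of glycolysis genes past 2-fold as they were. A fold from 1.0 to 3.0 estimated fragments cannot be sized at this depth.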
